A study of Homo sapiens with 4 samples.

Results

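Messenger RNA levels of 9 genes that encode enzymes of amino acid synthesis and interconversion were followed in J.gamma1 cells with and without a hairpin against ELOVL5. The genes were ASS1 and ASL (arginine), ASNS (asparagine), ALDH18A1, PYCR1 and OAT (proline and ornithine), GOT1 and GPT2 (aspartate, alanine and glutamate) and BCAT1 (branched-chain amino acids). They were chosen by metabolic role with 1 measured value in view, the strong fall of ASS1 in these same libraries, so their values and their calls in the contrast of shELOVL5 with shNC are given as a description and support nothing. All 9 matched 1 identifier each among the 64252 in the deposited count table, and all 9 were among the 17461 genes that passed the low-count filter. J.gamma1 is an established human T-cell acute lymphoblastic leukemia line derived from Jurkat and known for lacking the protein phospholipase C gamma 1. Both groups share this background, and transcripts of its gene, PLCG1, were present in every library (4972 to 5373 counts). A control short hairpin RNA was carried by 2 libraries (shNC) and one against the fatty acid elongase gene ELOVL5 by the other 2 (shELOVL5). How many hairpin sequences were used, and whether the cells were a clone or a mixed population, is not stated in the labels. Nor do the labels say that replicates were separate cultures, so spreads and p-values measure only the difference between these samples, which may be technical.

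ASS1 joins citrulline to aspartate and ASL splits the product into arginine and fumarate, the pair by which cells outside the liver make arginine. ASNS makes asparagine from aspartate and glutamine, and lymphoblasts with little of it depend on asparagine from outside, which is the basis of asparaginase treatment in acute lymphoblastic leukemia. In mitochondria ALDH18A1 turns glutamate into the intermediate that PYCR1 reduces to proline, and OAT links the same intermediate to ornithine. GOT1, GPT2 and BCAT1 are aminotransferases that move amino groups between glutamate and aspartate, alanine or the branched-chain amino acids. Several of these genes are known targets of ATF4, the transcription factor of the amino acid response, which binds composite C/EBP-ATF sites.

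The libraries held 16254002 to 17338719 counts, and 3 counts were worth 0.172 to 0.187 CPM (counts scaled to library size, with TMM factors). ELOVL5 itself had 5816 and 5664 counts in shNC and 1255 and 1157 in shELOVL5. Of 6 T-lineage markers all were detected, with a summed level of 1340 to 1400 CPM, while CD2 stayed at 2.00 to 3.59 CPM. The 4 erythroid markers were at 0 in every library, the 4 myeloid markers summed to 0.303 to 0.916 CPM, and 3 of 5 liver, epithelial or fibroblast markers, ALB among them, were at 0. The other 2 were detected in every library, KRT8 at 3.78 to 5.73 CPM and COL1A1 at 3.86 to 7.55 CPM, for a sum of 9.60 to 11.3 CPM, and their part in the results was not tested. Of 4 B-lineage markers 3 stayed under 1 CPM, and CD79A alone gave most of the summed 24.8 to 43.8 CPM. Counts from mitochondrial DNA made up 2.61% and 2.62% in shNC and 3.11% and 3.30% in shELOVL5, and the part of this shift in the results was not tested.

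The sequences upstream of the members were searched because ATF4 targets and MYC targets are known among them. RefSeq windows on GRCh38.p14, from 250 bases before to 50 bases after each transcript start, were found for 7 of the 9 genes (13 windows). The C/EBP-ATF core TGATGNAA, sought on both strands, was in 1 window each of ASNS, BCAT1 and GOT1, and in 3.62% of all 35116 windows of that length. The E-box CACGTG reads the same on both strands and does not overlap the other motif in any member. It was in 1 window each of ASS1, ALDH18A1 and BCAT1, and in 7.26% of all windows. A gene can have several windows, so shares of windows are not shares of genes. Of 11151 tested genes with a window, 308 held the core and 1401 the E-box in at least 1. The stretches are printed 5′ to 3′ on the gene's strand, with the match in capitals. They show the matches that lay wholly before the start of their window's transcript. These were in genes that fell (ASNS, BCAT1, ASS1) and in genes that did not pass (GOT1, ALDH18A1). The E-box of BCAT1 did not lie wholly before the start and is not printed.
ASNS, chr7:97872458-97872487, minus strand: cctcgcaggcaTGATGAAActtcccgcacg
BCAT1, chr12:24949131-24949160, minus strand: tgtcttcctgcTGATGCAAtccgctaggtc
GOT1, chr10:99430804-99430833, minus strand: aattgcattggTTGCATCAttctcggcagc
ASS1, chr9:130444711-130444928, plus strand: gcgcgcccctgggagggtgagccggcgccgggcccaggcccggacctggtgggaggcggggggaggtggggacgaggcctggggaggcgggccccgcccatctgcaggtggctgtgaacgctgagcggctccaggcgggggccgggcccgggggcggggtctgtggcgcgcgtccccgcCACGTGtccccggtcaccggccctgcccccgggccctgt
ALDH18A1, chr10:95656712-95656961, minus strand: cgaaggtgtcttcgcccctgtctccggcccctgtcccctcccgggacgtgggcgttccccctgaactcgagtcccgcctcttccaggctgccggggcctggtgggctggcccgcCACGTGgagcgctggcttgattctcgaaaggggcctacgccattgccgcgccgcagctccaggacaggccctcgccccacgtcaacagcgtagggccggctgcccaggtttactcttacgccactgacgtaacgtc

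The match of ASNS begins 68 bases before a RefSeq start and that of BCAT1 48 bases before one, both on the gene's strand. In GOT1 the motif lies 198 bases before the start on the opposite strand, where it reads TTGCATCA along the gene. These 3 matches overlap exons of their own genes as annotated in GENCODE release 29. The E-boxes of ASS1 (71 bases before a RefSeq start at 130444961) and ALDH18A1 (136 bases before its start) lie outside the genes as annotated in that release. The printed ASS1 stretch with its E-box nevertheless lies after another RefSeq start of ASS1, at 130444707. A match is a run of letters, not an observed binding site.

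Of the 9 genes 5 were lower in shELOVL5 past an adjusted p of 0.05, and none was higher (edgeR quasi-likelihood test with Benjamini-Hochberg adjustment over all genes). Those 5 were ASS1, ASNS, GPT2, BCAT1 and PYCR1, while ASL, ALDH18A1, OAT and GOT1 did not pass. Among all tested genes 20.4% passed, 11.2% as lower and 9.22% as higher, and since the list was made with this contrast in view, nothing is read from the count of 5. No member was higher even at an unadjusted p of 0.05, nor with DESeq2 or limma-voom. The median log2 fold change over the 9 genes was -0.80, beside 0.006 over all tested genes. Without shELOVL5 replicate 1 or 2 the calls among all genes dropped from 3562 to 1872 and 1973, and the same 5 enzyme genes passed.

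**Figure D1:**
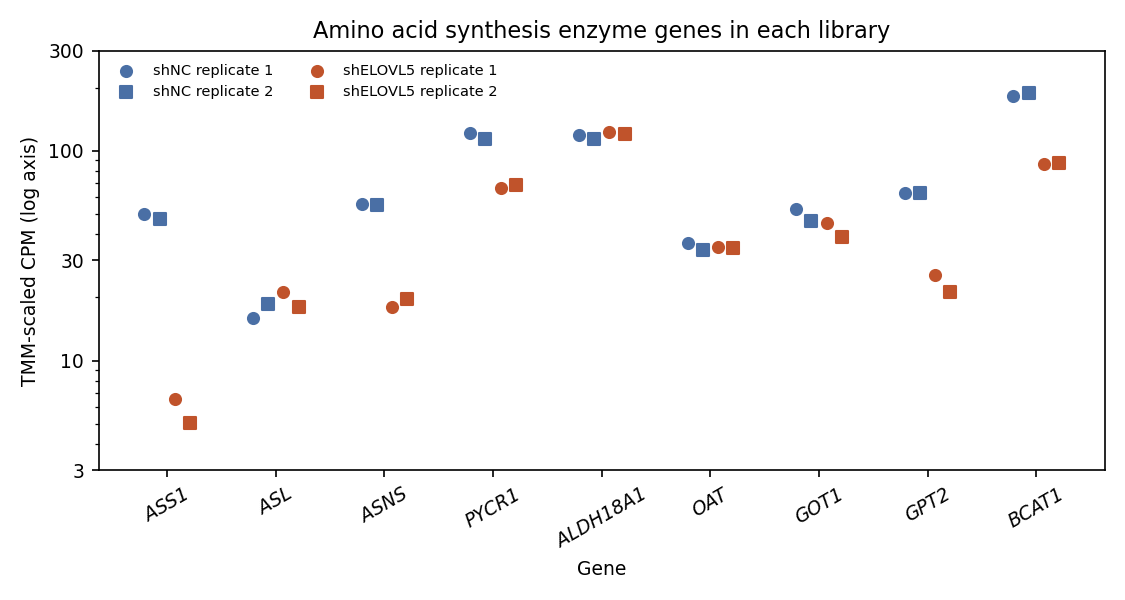
TMM-scaled CPM on a log axis for the 9 enzyme genes, 1 point per library (blue shNC, orange shELOVL5, circle replicate 1, square replicate 2). The orange points of ASS1, near 5 to 7 CPM, lie far below its blue points near 50 CPM, those of ASNS, PYCR1, GPT2 and BCAT1 also lie below, and those of ASL and OAT overlap the blue points.

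In arginine synthesis the gene of the first enzyme fell and that of the second did not pass. ASS1 (ENSG00000130707, GRCh38 chromosome 9, 130444929 to 130501274, plus strand) gave 852 and 758 counts with the control hairpin, against 114 and 83 with the hairpin for ELOVL5. Scaled to library size these were 50.2 and 47.2 CPM against 6.52 and 5.02 CPM. Both shELOVL5 libraries lay far below both shNC libraries, and the fitted level was 11.9% of the control, an 8.41-fold fall (log2 fold change -3.07, SE 0.145). ASS1 stood at rank 16 from the lowest fold change among the 17461 tested genes, with 0.0859% of them below it. In a bulk sample, fewer cells with the transcript and less transcript per cell cannot be told apart.

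ASL (ENSG00000126522, chromosome 7, 66075798 to 66093558, plus strand) gave 15.9 and 18.7 CPM in shNC and 21.1 and 17.9 CPM in shELOVL5. The groups overlapped, and the log2 fold change of 0.18 was close to its SE of 0.155. Per unit of transcript length, in TPM (counts per kilobase of merged exons, scaled to a fixed sum), ASS1 stood at 3.31 and 2.65 times ASL in shNC and at 0.324 and 0.294 times ASL in shELOVL5. The more abundant of the 2 messages was thus ASS1 in the control libraries and ASL in the knockdown libraries.

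ASS1 has many processed copies in the genome, and the deposited table lists 14 of them, 4 with any count. Their summed counts were 35 and 40 in shNC and 41 and 20 in shELOVL5, with no separation of the groups, and most came from ASS1P12 (27 and 34 against 36 and 20). These counts reached at most 36.0% of those of ASS1, in shELOVL5 replicate 1. With the copies added to ASS1 the log2 fold change was -2.75. ASL has 1 listed pseudogene (2 and 11 against 3 and 11 counts), and of 4 for ASNS only ASNSP3 had counts, 8 in shNC replicate 2.

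ASNS (ENSG00000070669, chromosome 7, 97852118 to 97872542, minus strand) fell with nearly equal values within each group. It gave 55.9 and 55.1 CPM in shNC and 18.1 and 19.5 CPM in shELOVL5. The shELOVL5 libraries stood at 33.9% of the control by the fitted fold (log2 fold change -1.56, SE 0.101), and the groups were well apart. ASNSD1, a gene whose protein carries an asparagine synthetase domain, had means of 48.1 and 48.9 CPM and missed the threshold (log2 fold change 0.03). In TPM, ASNS was 0.648 and 0.649 times ASNSD1 in shNC and 0.216 and 0.216 times in shELOVL5.

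In proline synthesis the gene of the last step fell and that of the first steps did not pass. ALDH18A1 (ENSG00000059573, chromosome 10, 95605929 to 95656706, minus strand), which encodes the enzyme of the first, glutamate-consuming steps, gave 118.7 and 114.2 CPM in shNC and 123.4 and 119.7 CPM in shELOVL5. The groups did not overlap, as for 60.1% of all tested genes, but lay within a few CPM of each other (log2 fold change 0.06, SE 0.0563), and the gene did not pass. PYCR1 (ENSG00000183010, chromosome 17, 81932384 to 81942412, minus strand), which encodes the mitochondrial reductase of the last step, fell from 122 and 113 CPM to 66.3 and 68.6 CPM. Its level in shELOVL5 was 57.3% of the control (log2 fold change -0.80, SE 0.0658).

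The order of the 2 proline genes by TPM changed with the groups. PYCR1 stood at 1.34 and 1.29 times ALDH18A1 in TPM in shNC and at 0.701 and 0.748 times in shELOVL5. In CPM, which do not correct for length, the 2 genes were near each other in shNC (122 against 119 and 113 against 114). Their order in shNC thus rests on the merged exon lengths. An antisense gene that overlaps PYCR1, ENSG00000263585, gave 122 and 97 counts in shNC and 64 and 67 in shELOVL5 (log2 fold change -0.78, adjusted p = 0.0589). Whether the counting used strand is not stated, so reads of this gene and of PYCR1 cannot be told apart. MYADML2, which overlaps PYCR1 on the same strand, gave 21 and 7 counts in shNC and 15 and 12 in shELOVL5 (log2 fold change -0.08, adjusted p = 0.95). OAT (ENSG00000065154, chromosome 10, 124397303 to 124418976, minus strand), which connects ornithine to the proline intermediate, gave 36.5 and 33.6 CPM in shNC and 34.9 and 34.5 CPM in shELOVL5. Its groups overlapped, with a log2 fold change of -0.01 and an SE of 0.101.

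The 3 aminotransferase genes differed among themselves. GPT2 (ENSG00000166123, chromosome 16, 46884378 to 46931297, plus strand), which encodes the mitochondrial alanine aminotransferase, fell from 63.1 and 62.9 CPM to 25.6 and 21.2 CPM. That was 37.2% of the control (log2 fold change -1.43, SE 0.108), with a wider spread in shELOVL5 (SD 3.15 CPM, n = 2) than in shNC (SD 0.120 CPM, n = 2). BCAT1 (ENSG00000060982, chromosome 12, 24810022 to 24949459, minus strand), which encodes the cytosolic branched-chain aminotransferase, fell from 181.8 and 187.8 CPM to 86.4 and 87.5 CPM. It stood at 47.0% of the control (log2 fold change -1.09, SE 0.0534), the smallest SE of the 9 genes.

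GOT1 (ENSG00000120053, chromosome 10, 99396870 to 99431569, minus strand), which encodes the cytosolic aspartate aminotransferase, gave 52.9 and 46.5 CPM in shNC and 45.4 and 38.9 CPM in shELOVL5. The groups did not overlap, but the higher shELOVL5 library lay nearer to the lower shNC library than to its own replicate. The gene did not pass (log2 fold change -0.24, SE 0.108). GOT1-DT, which overlaps GOT1 on the opposite strand, gave 14 and 7 counts in shNC and 14 and 13 in shELOVL5 (log2 fold change 0.32, adjusted p = 0.784). The 5 genes that fell thus ranged from 11.9% to 57.3% of the control, while the 4 others lay between 84.7% and 112.9%.

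**Figure D2:**
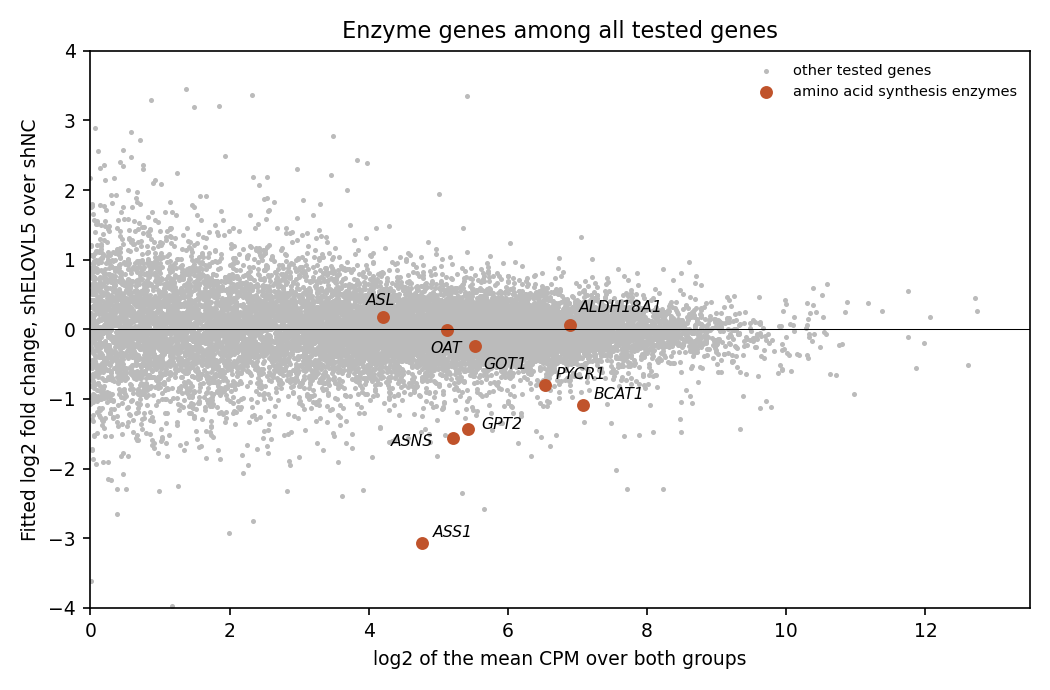
Fitted log2 fold change (shELOVL5 over shNC) against the log2 of the mean CPM for the tested genes that average 1 CPM or more (grey), with the 9 enzyme genes in orange. A further 1676 tested genes lie under 1 CPM and 6 lie outside the drawn range of 4 on either side. ASS1 sits near -3 below nearly all genes of its abundance, and ASL, OAT, ALDH18A1 and GOT1 sit inside the grey band.

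Compared per unit of length, the control libraries held most PYCR1 (157 ± 6.61 TPM, SD, n = 2), followed by ALDH18A1 (119 ± 2.15 TPM). ASS1 (61.3 ± 2.03 TPM), BCAT1 (60.3 ± 1.95 TPM) and GOT1 (56.7 ± 4.66 TPM) came next, and neighbours among these 3 did not differ beyond their summed spread. ASNS (47.8 ± 0.0319 TPM) lay below GOT1 by more than their spread. Then came OAT (39.7 ± 1.97 TPM) and GPT2 (38.1 ± 0.281 TPM), again within their spread, and ASL was last (20.8 ± 2.57 TPM).

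In shELOVL5 the order was ALDH18A1 (125 ± 1.42 TPM), PYCR1 (90.3 ± 3.05 TPM), GOT1 (48.3 ± 4.79 TPM), OAT (39.6 ± 0.0759 TPM) and BCAT1 (28.5 ± 0.535 TPM). ASL (23.6 ± 2.49 TPM) now stood above ASNS (16.3 ± 1.07 TPM) and GPT2 (14.2 ± 1.77 TPM), which lay within their summed spread of each other. ASS1 was last (7.30 ± 1.27 TPM), moving from 10.2% to 1.86% of the sum of the 9 genes. That sum was 600.1 ± 12.7 TPM in shNC and 392.7 ± 7.01 TPM in shELOVL5. Merged exons include those of rare transcripts, so TPM of a gene with long or many transcripts, such as BCAT1, may be understated.

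The isoenzymes encoded by other genes were then set beside the members. BCAT2, the mitochondrial branched-chain aminotransferase gene, had means of 53.4 and 56.4 CPM (log2 fold change 0.08). BCAT1 thus went from 1.29 and 1.38 times BCAT2 in TPM to 0.579 and 0.613 times. In CPM, BCAT1 stayed above BCAT2 in shELOVL5 (means of 86.9 and 56.4), so the fall of the ratio below 1 rests on the merged exon lengths. GPT, the cytosolic alanine aminotransferase gene, was rare in both groups, with 32 and 41 counts against 33 and 49. GPT2 exceeded it 14.5 and 10.7 times in shNC and 5.89 and 3.10 times in shELOVL5.

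PYCR3, the gene of the cytosolic pyrroline carboxylate reductase, did not pass (log2 fold change 0.05). PYCR1 was 11.4 and 12.8 times PYCR3 in TPM in shNC and 6.55 and 6.70 times in shELOVL5. GOT2, the mitochondrial aspartate aminotransferase gene, had a small fall, from 163 to 143 CPM (log2 fold change -0.19, adjusted p = 0.0382). That call was lost without shNC replicate 2 (adjusted p = 0.197), shELOVL5 replicate 1 (0.139) or shELOVL5 replicate 2 (0.169). The ratio of GOT1 to GOT2 showed no separation, at 0.381 and 0.304 in shNC and 0.355 and 0.306 in shELOVL5. Differences in fold change between isoenzymes were not tested, since the members were chosen in this contrast.

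**Figure D3:**
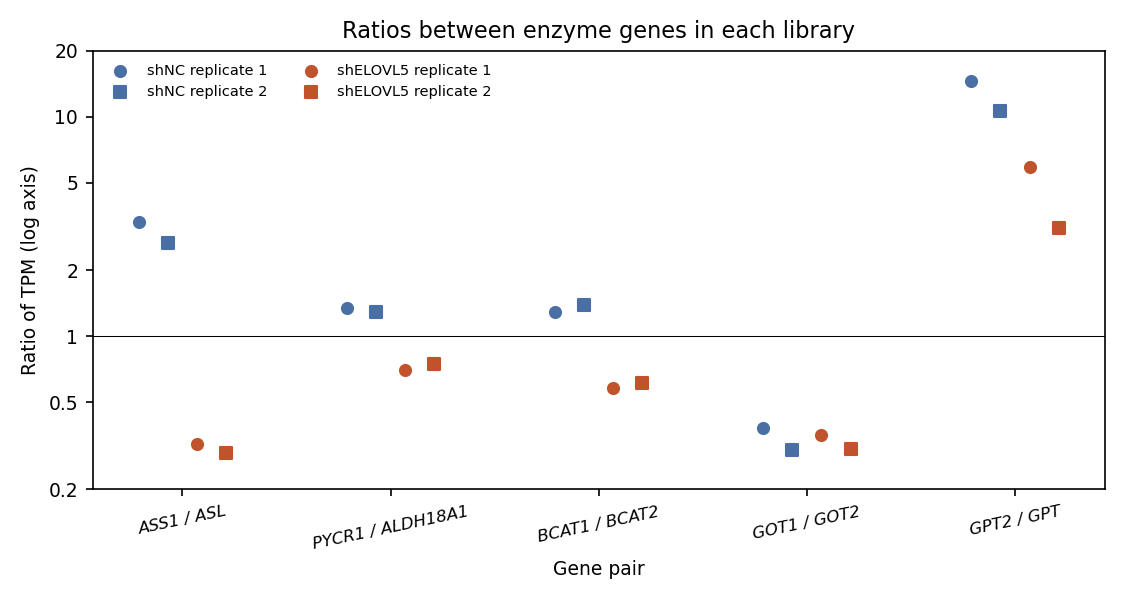
Ratio of TPM between 5 pairs of enzyme genes in each library on a log axis, with a line at 1 (colours and symbols by library as in the plot of CPM). ASS1 to ASL, PYCR1 to ALDH18A1 and BCAT1 to BCAT2 lie above 1 in both shNC libraries and below 1 in both shELOVL5 libraries, and GOT1 to GOT2 overlaps between the groups. Where a ratio lies relative to 1 depends on the merged exon lengths.

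The wider pathways were then counted. Of 65 further genes of these pathways 50 were tested, and 9 were lower and 4 higher, which is 26% against 20.4% of all tested genes. Their median log2 fold change was -0.05. These genes too were listed with earlier results of these data known, so nothing is read from the share. The remaining 15 had at most 11 counts in any library, among them OTC, ARG1 and the neuronal and inducible nitric oxide synthase genes NOS1 and NOS2. Without shNC replicate 2 or shELOVL5 replicate 1, 7 of these pathway genes passed in each case, and without shELOVL5 replicate 2, 6 passed.

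Of the 13 genes around arginine and the urea cycle 7 were tested and none passed, with 2 at an unadjusted p under 0.05 by edgeR and none past the threshold by DESeq2 or limma-voom. ARG2, which encodes the mitochondrial arginase that splits arginine, had means of 29.7 and 28.3 CPM, and SLC25A15, the mitochondrial ornithine carrier gene, 56.5 and 53.7 CPM. NAGS, whose product makes the activator of the first urea cycle enzyme, had 30 and 30 counts against 6 and 15 (log2 fold change -1.54, SE 0.573, adjusted p = 0.0875). CPS1, the gene of that first enzyme, had 154 and 128 counts against 203 and 199 (log2 fold change 0.47, adjusted p = 0.119).

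Around asparagine and aspartate 1 of 6 tested genes fell and 1 rose. NAT8L, which encodes the enzyme that acetylates aspartate, fell by 0.62 on the log2 scale (adjusted p = 0.00599, but 0.0616 without shELOVL5 replicate 2). ADSS2, whose enzyme uses aspartate in purine synthesis, rose by 0.29 (adjusted p = 0.0236). The call was lost without shNC replicate 2 (adjusted p = 0.105), shELOVL5 replicate 1 (0.0767) or shELOVL5 replicate 2 (0.165). ASRGL1, an asparaginase gene, missed the threshold at a log2 fold change of 0.17 (adjusted p = 0.068).

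Among 8 tested glutamine and glutamate genes, GLUD1, the glutamate dehydrogenase gene, fell from 282 to 214 CPM (log2 fold change -0.40, adjusted p = 0.000248). OGDH, which encodes a subunit of the oxoglutarate dehydrogenase complex, rose from 141 to 184 CPM (log2 fold change 0.39, adjusted p = 0.000529). The glutamine synthetase gene GLUL (0.00251) did not pass.

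In proline breakdown and use 1 of 4 tested genes fell and 1 rose. PEPD, a dipeptidase gene that releases proline, fell by 0.49 on the log2 scale (adjusted p = 0.0148), and P4HA1, a prolyl hydroxylase subunit gene, rose by 0.35 (adjusted p = 0.0235). Neither passed without shNC replicate 2 (adjusted p = 0.0773 and 0.132), shELOVL5 replicate 1 (0.0555 and 0.141) or shELOVL5 replicate 2 (0.109 and 0.0909).

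Of 14 genes of branched-chain breakdown 12 did not pass. PPM1K, the phosphatase gene that activates the branched-chain dehydrogenase complex, fell by 0.52 on the log2 scale (adjusted p = 0.0021). DLD, the gene of a subunit that this complex shares with others, rose by 0.28 (adjusted p = 0.00603, but 0.0867 without shELOVL5 replicate 1).

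Other aminotransferase genes fell in 3 of 5 tested cases. PSAT1, the phosphoserine aminotransferase gene, had 6993 and 6170 counts in shNC and 2517 and 2365 in shELOVL5 (log2 fold change -1.47, adjusted p = 2.93e-08). KYAT1, a glutamine transaminase and kynurenine aminotransferase gene, fell by 0.71 (adjusted p = 0.0288), and AADAT, the aminoadipate aminotransferase gene, by 0.60 (adjusted p = 0.0196). AADAT did not pass without any 1 of the 4 libraries (adjusted p = 0.0529 to 0.114). For KYAT1 the call was lost without shNC replicate 1 (adjusted p = 0.099), shNC replicate 2 (0.0733) or shELOVL5 replicate 2 (0.171).

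**Figure D4:**
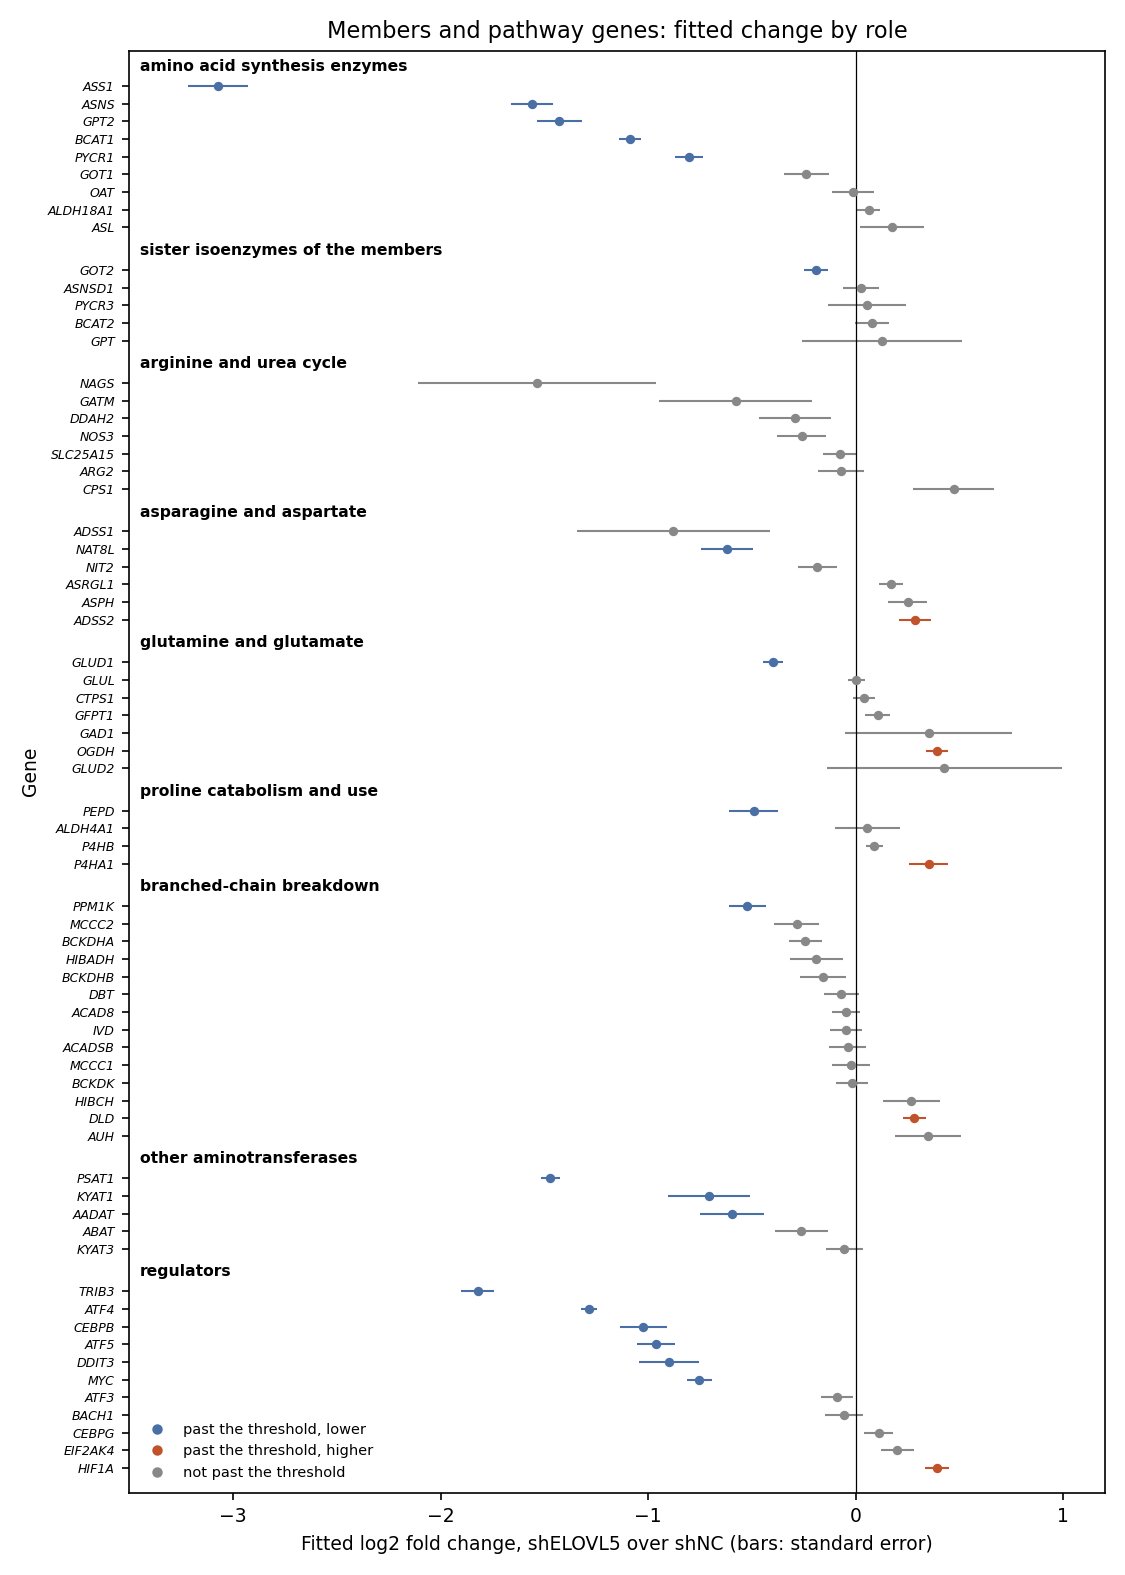
Fitted log2 fold change with its standard error for the 9 enzyme genes, 48 of the tested pathway genes and 11 regulator genes, ordered within each role (blue lower and orange higher past the threshold, grey not past it). ASS1 lies furthest to the left, most pathway genes lie near 0, PSAT1 and ATF4 lie among the values of ASNS, GPT2 and BCAT1, and TRIB3 lies between those of ASS1 and ASNS.

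Of 11 genes known to act on amino acid enzyme genes 6 fell and 1 rose. Among all tested genes 11.2% were lower and 9.22% higher. The 11 genes were listed with earlier results of these data known, so nothing is read from this count. ATF4 had 8539 and 8128 counts in shNC and 3646 and 3391 in shELOVL5 (log2 fold change -1.29, SE 0.0396, adjusted p = 1.95e-08). TRIB3, a pseudokinase gene induced by ATF4 that restrains it, fell by 1.82 on the log2 scale (adjusted p = 2.34e-07). CEBPB (-1.02, adjusted p = 0.000161) and DDIT3 (-0.90, adjusted p = 0.00153), which encode C/EBP family partners, and ATF5 (-0.96, adjusted p = 4.41e-05) also fell.

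MYC fell by 0.75 on the log2 scale (adjusted p = 1.34e-05). HIF1A, which encodes the hypoxia factor known to act on ASS1 in some tumours, rose by 0.39 (adjusted p = 0.000904). CEBPG (0.11), ATF3 (-0.09), BACH1 (-0.06) and EIF2AK4 (0.20), the gene of the kinase GCN2 that senses uncharged tRNA, did not pass. The part of these regulators in the changes of the enzyme genes was not tested.

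The C/EBP-ATF core shown above for ASNS, BCAT1 and GOT1 was also followed over all genes. It was in at least 1 RefSeq window of 308 tested genes, of which 57 (18.5%) were lower and 30 (9.74%) higher, with a median log2 fold change of -0.08. Of the 11151 tested genes with a window 13.2% were lower and 10.6% higher, with a median of 0.00124. For the E-box, 14.8% of 1401 tested genes were lower and 11.4% higher, with a median of -0.01. These shares include the members themselves and were not tested.

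ASS1 was also set beside all genes of at least 5 CPM for likeness over the 4 libraries. The measure was the Euclidean distance of log2(CPM + 0.5) after subtraction of each gene's shNC mean, over 9789 genes with an ordinary symbol. The nearest were ELOVL5 (distance 1.01), the cystine transporter gene SLC7A11 (1.02) and the chemokine receptor gene CCR2 (1.12). SLC7A11 had 67.3 and 68.4 CPM in shNC and 12.5 and 14.1 CPM in shELOVL5, and CCR2 had 19.3 and 22.0 against 3.55 and 4.30 CPM. With 2 groups of 2 libraries, this likeness reflects mainly the size of the fall.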

How the data were processed

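The authors deposited 1 table of whole-number read counts per Ensembl gene, not normalized, with 1 column for each of the 4 libraries. The submitters' processing notes list HISAT2 2.2.0, StringTie and the build hg38 without role or order. Neither the counting step nor the annotation release nor the use of strand is stated in them. Libraries were grouped by title, and all column names also share the tag D4, whose meaning is not stated. Symbols came from a name table that held 56105 of the 64252 identifiers, and coordinates and merged exon lengths from GENCODE release 29 (GRCh38), which held 56591.

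The counts were fitted with edgeR 4.0.16 in R 4.3.3 (filterByExpr with a minimum count of 10, TMM, glmQLFit with robust=TRUE, two-sided glmQLFTest, with no covariate). The Benjamini-Hochberg adjustment ran over every tested gene, with a threshold of 0.05, and log2 fold changes are shELOVL5 over shNC. An SE is the absolute log2 fold change divided by the root of the F statistic. CPM use TMM-scaled library sizes and TPM the merged exons. The fit was tested on simulated counts, with 50 genes changed at each of 1.5, 2, 3 and 8 fold. The changed genes averaged at least 10 CPM, so recovery of rarer genes was not measured. The fit recovered 56%, 88%, 98% and 100% of the changed genes. A further 44 unchanged genes passed as false calls among 17629 tested. These false calls were a larger share of the genes that passed than the threshold of 0.05. Chi-square per degree of freedom was 5.93 and 5.51 within groups and 25.3 to 27.6 between them, so all libraries counted as separate.

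The alternatives were RLE size factors, total counts only, 2 other low-count filters, DESeq2 1.42.0, limma-voom (limma 3.58.1), robust=FALSE, a replicate block, a test against a 1.2-fold change, leaving out each library, and adding pseudogene counts. Members and gene lists were chosen with earlier results of these data known. Values of 2 listed pathway genes are not reported here. Named were all members, all regulators, ELOVL5, up to 4 other passing genes per pathway list by smallest p, and the 3 genes most like ASS1. Genes that overlap a member were named where they were tested. Pseudogene counts were given per member, and not every pseudogene was named. The non-passing pathway genes named for context were chosen after their values were seen.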

Additional observations from a re-analysis of the deposited data

How the results depend on the processing

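The same 5 enzyme genes (ASS1, ASNS, GPT2, BCAT1 and PYCR1) passed as lower under all 14 alternatives run, and with each library left out the count was 5 in every case. The log2 fold change of ASS1 ranged from -3.28 to -2.75, that of ASNS from -1.62 to -1.51, of GPT2 from -1.58 to -1.30, of BCAT1 from -1.11 to -1.05 and of PYCR1 from -0.86 to -0.75. ASL, ALDH18A1, GOT1 and OAT passed in none, and OAT, near 0, ranged from -0.08 to 0.04. Calls among all genes numbered 2243 with no low-count filter, 1049 against a 1.2-fold change, and 1872 to 2963 with 1 library left out, where fewer samples entered the fit. Calls among pathway genes numbered 4 against a 1.2-fold change and 6 to 11 with 1 library left out. GOT2 also missed the threshold with total counts only, no low-count filter, DESeq2, limma-voom and robust=FALSE, and ADSS2, P4HA1 and KYAT1 with no low-count filter. Against a 1.2-fold change OGDH and HIF1A missed it too, as did GOT2, ADSS2, PEPD, P4HA1, DLD, AADAT and KYAT1. The cause was not tested. Same-numbered libraries did not deviate together (correlation -0.00564 over 17461 genes), so the numbers were not read as pairs. With a replicate block 3453 genes, 13 pathway genes and 5 enzyme genes passed. With 2 libraries per group, small changes such as those of GOT1 and ASL are not resolved.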
